A study of Homo sapiens with 12 samples.

Results

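The 9 genes described here encode the subunits of the WAVE regulatory complex: NCKAP1, CYFIP1, CYFIP2, ABI1, ABI2, WASF1, WASF2, WASF3 and BRK1. They were taken by symbol from the 41878 gene rows of the raw count table, each symbol had a row, and all 9 passed the filter on low counts, as did 18030 rows in all. NCKAP1 was chosen by a measured value, its higher level with TRPML3 in fed cells, and the other 8 were added as its partners in the complex. Its rise in fed cells is therefore given as a description, without a test. In starved cells, whose libraries took no part in the choice, no WAVE gene differed between TRPML3 and vector beyond the test, and NCKAP1 had a log2 fold change of 0.12 with an interval that includes 0.

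The libraries came from HEK293T, an established human embryonic kidney line. All cells were transiently transfected with 1 µg of plasmid, which was either a control vector or one for TRPML3, the endosomal and lysosomal cation channel encoded by MCOLN3. Before RNA extraction they were kept in 10% serum (fed) or without serum (0%) for 4 h (starved), the latter a treatment meant to induce autophagy. The 4 groups of 3 libraries, which the labels call biological triplicates, were thus vector fed, TRPML3 fed, vector starved and TRPML3 starved, and polyadenylated RNA was sequenced.

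The WAVE complex joins signals from the small GTPase Rac to the Arp2/3 complex, which starts new branches on actin filaments, and so drives the sheet-like protrusions at the edge of moving cells. NCKAP1 and CYFIP form the large scaffold that holds the complex inactive and carries the Rac binding sites, ABI, WASF and BRK1 form the helical part, and the WASF subunit (also called WAVE) carries the segment that activates Arp2/3. CYFIP, ABI and WASF are each encoded by several paralogous genes, of which one complex holds a single product, while NCKAP1 and BRK1 are encoded by single genes outside blood cells.

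Library totals were 33101540 to 43700547 counts, so that counting error is small for these genes. MCOLN3 had 9.30 to 18.4 CPM (counts brought to a common library size) in the 6 vector libraries and 4926 to 58195 in the 6 TRPML3 libraries. Within TRPML3 fed it had 6208, 4926 and 39952 CPM in replicates 1, 2 and 3, and within TRPML3 starved 41342, 58195 and 16888, so that the amount of TRPML3 transcript was uneven within each group. The share of counts from mitochondrial genes was 1.05% to 5.70% and followed the replicate number, with 1.05% to 2.52% in replicate 2 and 4.83% to 5.70% in replicate 3. Of 6 genes typical of the line, including VIM, NEFL and PAX2, all had counts in all 12 libraries. The blood marker PTPRC was at 0 in 11 libraries, and 6 blood markers summed to 0.62 to 2.60 CPM. The sum of 6 fibroblast and endothelial markers ran from 1.66 to 21.8 CPM, with COL1A1 at 0.22 to 20.6, PDGFRA at 0.10 to 2.83, and COL1A2 and CDH5 at 0 in 10 libraries each. As in any bulk sample, fewer cells carrying a transcript and less of it per cell cannot be told apart.

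NCKAP1 (ENSG00000061676) lies on the minus strand of chromosome 2, at 182909115 to 183038858 in GRCh38, and no other gene shares its exons in GENCODE release 29. Its start region is printed because NCKAP1 is the gene whose level differed between the fed groups. The RefSeq window (GRCh38.p14, chr2:183038408-183038707, minus strand) reaches from 250 bases before the RefSeq start to 50 after it. It lies inside the gene as GENCODE places it, since the GENCODE start on this strand is 183038858. Capitals mark the motif GGGCGG.
NCKAP1: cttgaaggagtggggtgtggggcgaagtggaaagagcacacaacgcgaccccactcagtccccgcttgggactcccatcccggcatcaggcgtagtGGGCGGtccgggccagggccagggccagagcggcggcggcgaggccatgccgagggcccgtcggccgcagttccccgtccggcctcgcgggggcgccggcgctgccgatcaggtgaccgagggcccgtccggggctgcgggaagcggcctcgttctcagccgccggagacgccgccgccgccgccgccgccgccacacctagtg
The window is 75.3% G and C, against a median of 58.7% over all windows. It holds GGGCGG once, beginning 154 bases before the RefSeq start, and holds no CACGTG. Searched on both strands, GGGCGG occurs in 44.954% of the 35116 windows of this length and CACGTG, which reads the same on both strands, in 7.256%. Of 13 windows for 8 of the WAVE genes, 8 windows, from 7 genes, hold GGGCGG and 1, for CYFIP1, holds CACGTG. These are matches of letters, and binding was not measured.

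In fed cells NCKAP1 had 191 CPM, 212 and 185 CPM with vector in replicates 1, 2 and 3, and 537, 503 and 466 CPM with TRPML3. The 3 TRPML3 libraries were all above the 3 vector libraries, with no overlap, and the spread was small on both sides. The means were 196 ± 14.1 CPM (SD, n = 3) and 502 ± 35.8 CPM, a log2 fold change of 1.36 ± 0.18 (SE, 95% interval 0.95 to 1.76). Within TRPML3 fed, the library with the most MCOLN3, replicate 3, had the least NCKAP1. Within TRPML3 starved, the library with the most MCOLN3, replicate 2, had the middle NCKAP1 value, and the one with the least MCOLN3, replicate 3, had the most NCKAP1. A relation between the 2 transcripts was not tested. Because the fed contrast chose the gene, it has no p here, and its SE and interval make no allowance for that choice. The share of all genes at an edgeR adjusted p under 0.05 in the fed contrast, 0.0111%, serves only as background.

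In starved cells NCKAP1 had 366, 282 and 372 CPM with vector and 285, 364 and 457 CPM with TRPML3. These groups overlapped: vector replicates 1 and 3 lay above TRPML3 replicates 1 and 2. The means were 340 ± 50.4 and 368 ± 86.0 CPM (SD, n = 3), and the log2 fold change was 0.12 ± 0.18 (SE), with an edgeR adjusted p of 1. Its 95% interval was -0.28 to 0.52. Leaving out 1 library, TRPML3 starved replicate 3 or vector starved replicate 2, turned the sign, to -0.078 and -0.0029.

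**Figure D1:**
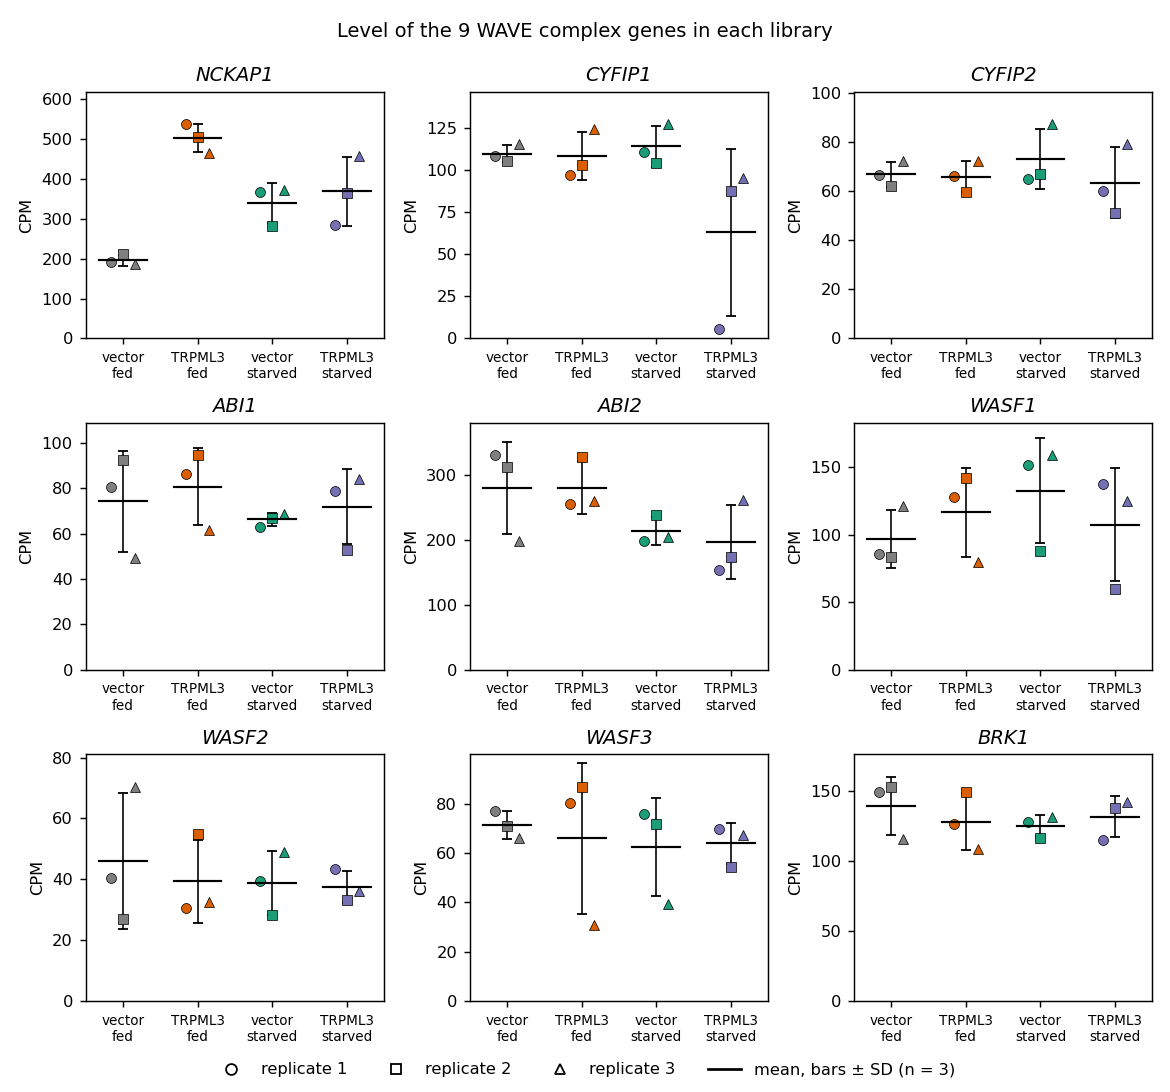
Level in CPM of each of the 9 WAVE complex genes in the 12 libraries, grouped by plasmid and serum; symbols are replicates, lines are means and bars are ± SD (n = 3). NCKAP1 is at 185 to 212 CPM in vector fed and at 282 to 537 CPM in the other 9 libraries, and CYFIP1 is at 5.78 CPM in TRPML3 starved replicate 1.

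Serum withdrawal was followed by opposite differences of NCKAP1 in the 2 plasmids. With vector, the starved libraries (282 to 372 CPM) were all above the fed ones (185 to 212 CPM), a log2 fold change of 0.79 ± 0.18 (SE, 95% interval 0.39 to 1.20). With TRPML3, the starved libraries (285 to 457 CPM) were all below the fed ones (466 to 537 CPM), a log2 fold change of -0.45 ± 0.18 (95% interval -0.85 to -0.05). The fed libraries of each plasmid are those that chose the gene, low with vector and high with TRPML3, so these values are not independent of the choice and neither passed over all genes. Averaged over the plasmids, NCKAP1 differed between starved and fed by 0.17 ± 0.13 on the log2 scale (95% interval -0.11 to 0.46, edgeR adjusted p = 0.742). The difference between the TRPML3 effects in starved and fed cells was -1.24 ± 0.26, again a description. In order of group means NCKAP1 ran from vector fed through vector starved and TRPML3 starved to TRPML3 fed, and the starved groups in the middle did not differ beyond their spread.

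The other scaffold subunit, CYFIP, binds Rac directly and is also a partner of the RNA-binding protein FMRP. CYFIP1 had 108, 105 and 115 CPM in vector fed, 97.0, 103 and 124 in TRPML3 fed, 111, 104 and 127 in vector starved, and 5.78, 87.5 and 95.2 CPM in TRPML3 starved. The first 3 groups lay close together, and in the last every library was below every other library of the series, with replicate 1 far below. That library had 198 CYFIP1 counts among 35862291 in all. The log2 fold change of TRPML3 in starved cells was -0.86 ± 0.68 (95% interval -2.35 to 0.63, edgeR adjusted p = 1), and without that 1 library it was -0.32, with an adjusted p of 1. Starvation with TRPML3 gave -0.78 ± 0.67 (edgeR adjusted p = 0.949) and -0.24 without it.

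Such single low libraries were not particular to CYFIP1. Of 4330 genes with a median of at least 50 CPM, 54 (1.25%) had 1 library at least 10 times below the next lowest, spread over 10 libraries, and 3 of these, CYFIP1 included, were in TRPML3 starved replicate 1. CYFIP1 was the only such WAVE gene. Its identifier in the count table, ENSG00000288461, is not in GENCODE 29, where CYFIP1 was matched by symbol (chromosome 15, 22867052 to 22981063, minus strand). It shares 1333 exonic bases there with NIPA2 on the opposite strand, a gene with 1345 to 3172 counts per library. Whether the authors' counting moved reads between such rows was not tested.

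CYFIP2 differed less between libraries. It had 62.0 to 72.3 CPM in vector fed, 59.5 to 72.4 in TRPML3 fed, 65.0 to 87.4 in vector starved and 51.1 to 79.5 CPM in TRPML3 starved. All 4 groups overlapped, and TRPML3 in starved cells gave a log2 fold change of -0.20 ± 0.21 (95% interval -0.66 to 0.25, edgeR adjusted p = 1).

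The ABI subunits anchor the helical part of the complex to the scaffold and bind signalling proteins through an SH3 domain. ABI2 had 329, 311 and 198 CPM in vector fed, 254, 327 and 259 in TRPML3 fed, 197, 237 and 205 in vector starved, and 154, 173 and 260 CPM in TRPML3 starved. The mean of starved libraries was lower than that of fed ones with both plasmids, but the ranges overlapped. The log2 fold change on starvation was -0.39 ± 0.24 with vector (edgeR adjusted p = 1) and -0.51 ± 0.24 with TRPML3 (edgeR adjusted p = 0.869). These comparisons share no library, and their average was -0.45 ± 0.17 (95% interval -0.83 to -0.08, unadjusted p = 0.0232, edgeR adjusted p = 0.448).

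That average passed the threshold when replicate 3 was left out of all groups, at -0.68 with an edgeR adjusted p of 0.042. In that fit 810 of 18052 genes passed, 4.49%, against none when all libraries were used. ABI2 shares 8870 exonic bases with RAPH1 on the opposite strand, and RAPH1 had 244 to 802 counts per library. In starved cells TRPML3 against vector gave -0.12 ± 0.24 for ABI2 (95% interval -0.65 to 0.41) and 0.12 ± 0.27 for ABI1 (-0.48 to 0.72), both at an edgeR adjusted p of 1. ABI1 had 49.4 to 94.6 CPM over the 12 libraries, with the lowest and highest both in fed cells.

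WASF1 is the WAVE paralog best known from the brain, WASF2 is widely expressed, and WASF3 has been studied mostly in cell movement. WASF1 had 85.6, 83.2 and 121 CPM in vector fed, 127, 142 and 79.6 in TRPML3 fed, 151, 87.8 and 159 in vector starved and 137, 59.8 and 125 CPM in TRPML3 starved. The replicates of each group differed more than the group means did, and all groups overlapped. Starvation with vector gave a log2 fold change of 0.46 ± 0.35 (edgeR adjusted p = 1) and TRPML3 in starved cells -0.30 ± 0.35 (95% interval -1.09 to 0.48, edgeR adjusted p = 1).

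WASF2 ran from 26.8 to 70.5 CPM, both ends being vector fed libraries. WASF3 ran from 30.7 to 86.9 CPM, both ends being TRPML3 fed libraries, and its 2 lowest values were replicate 3 of TRPML3 fed and of vector starved (39.4 CPM). TRPML3 in starved cells gave -0.05 ± 0.37 for WASF2 (95% interval -0.87 to 0.78) and 0.04 ± 0.36 for WASF3 (-0.77 to 0.84), with edgeR adjusted p = 1 for both. The sign of the WASF3 value turned to -0.069 when libraries were scaled by their totals alone.

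BRK1, the smallest subunit, binds WASF and ABI in the helical part. It had the narrowest range of the 9 genes, 109 to 153 CPM, its highest library being 1.41 times its lowest. TRPML3 in starved cells gave 0.07 ± 0.18 (95% interval -0.32 to 0.46, edgeR adjusted p = 1), and -0.034 with scaling by library totals alone. The highest library was 1.71 times the lowest for CYFIP2, 2.90 times for NCKAP1 and 22.0 times for CYFIP1, with the other 5 genes between 1.91 and 2.83 times.

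Over the 9 genes together, none passed the edgeR test at an adjusted p of 0.05 for TRPML3 in starved cells, where 0.00555% of all genes did. None passed for starvation in vector cells (background 0.00555%), and none for starvation in TRPML3 cells or for average starvation, where 0% of all genes passed. At an unadjusted p under 0.05 the count for TRPML3 in starved cells was 0 of 9 (background 2.2%). It was 1 of 9 for starvation in vector cells (background 4.44%) and 1 of 9 for starvation in TRPML3 cells (background 5.71%), in both NCKAP1, whose fed libraries chose it. It was 1 of 9 for average starvation, ABI2 (background 9.45%).

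Groups of libraries that did not overlap were also counted. In fed cells NCKAP1 was the 1 such gene of 9 (background 7.09%, and fixed by the choice). In starved cells CYFIP1 was the 1 gene whose TRPML3 and vector libraries did not overlap (background 6.58%). Starvation in vector cells gave 1 of 9, NCKAP1 (background 9.93%), and starvation in TRPML3 cells gave 2 of 9, NCKAP1 and CYFIP1 (background 11.2%). The comparisons share groups of libraries with each other, so these counts are not separate lines of evidence.

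The median log2 fold change of the 9 genes was -0.05 for TRPML3 in starved cells, -0.15 for starvation with vector and -0.12 for starvation with TRPML3. Over all genes tested, the medians were -0.01, -0.01 and 0.01. In fed cells the partners of NCKAP1 had log2 fold changes between -0.22 and 0.27, with a median of -0.02. The intervals differed in width: for WASF1, with the highest of these values, it was -0.51 to 1.05. For CYFIP1 it was -1.50 to 1.46, which holds changes as large as that of NCKAP1. The remaining partners had upper limits from 0.27 (BRK1) to 0.72 (ABI1) and lower limits from -1.05 (WASF2) to -0.48 (ABI1). The CYFIP1 interval uses a spread estimated over all 12 libraries, with the low TRPML3 starved replicate 1 among them. Its fed libraries lay closer together, at 105 to 115 CPM with vector and 97.0 to 124 CPM with TRPML3.

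**Figure D2:**
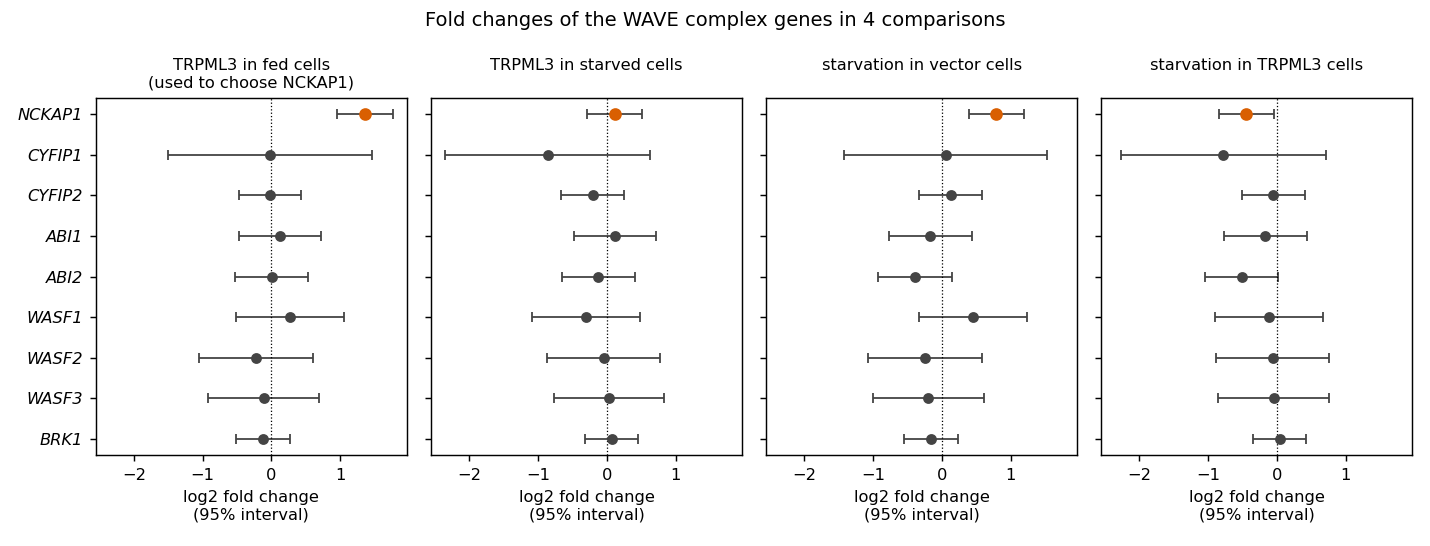
Log2 fold change (horizontal axis, points) with 95% interval (bars) of the 9 genes in the 4 comparisons between groups; NCKAP1 is drawn in orange. NCKAP1 stands at 1.36 in the fed comparison that chose it and at 0.12 in starved cells, and CYFIP1 has the widest intervals.

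Levels of different genes were compared as CPM per kilobase (kb) of exon. With all annotated exons of a gene as its length, BRK1 was highest (106 CPM per kb, mean of 12 libraries), followed by WASF1 (34.7), ABI1 (17.4), NCKAP1 (15.6), WASF3 (12.8), ABI2 (10.4), CYFIP1 (9.46), WASF2 (7.12) and CYFIP2 (6.43). The libraries of BRK1 (88.1 to 124) did not overlap those of WASF1 (18.3 to 48.6), while all other neighbours in this order overlapped. NCKAP1 and ABI2 have long annotated exons, 22.5 and 23.3 kb in all, against 4.99 and 6.48 kb for their longest principal transcript, the isoform GENCODE marks as the main one. Per kb of that transcript, NCKAP1 came next to BRK1 (70.5 against 106), ABI1 had 50.7, ABI2 37.3 and WASF1 35.2, and the other 4 had 7.12 to 15.8. The order between genes therefore depends on the isoform used, which gene counts do not show.

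Paralogs were then added up at each of the 5 positions of the complex. Per kb of exon, BRK1 was highest and WASF next in 12 of 12 libraries, ABI followed in 12 of 12, and CYFIP and NCKAP1 shared the last places. In vector fed, NCKAP1 (8.71 ± 0.62 CPM per kb, SD, n = 3) was below CYFIP (16.9 ± 0.97), and in TRPML3 fed (22.3 ± 1.59 against 16.7 ± 1.87) it was above it. In vector starved the values were 15.1 ± 2.24 for NCKAP1 and 17.9 ± 2.29 for CYFIP, and in TRPML3 starved 16.4 ± 3.82 and 12.1 ± 5.31, the latter with the low CYFIP1 library. With principal transcripts the order was another: BRK1 was highest in 10 libraries and NCKAP1 in 2, ABI came next to the highest in 9, WASF was below at least 2 other positions in all 12, and CYFIP was last in all 12. NCKAP1 was then above CYFIP in all 12 libraries, 1.10 to 1.41 times in vector fed and 2.64 to 3.61 times in TRPML3 fed. Since the fed levels of NCKAP1 chose it, this shift is a description.

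**Figure D3:**
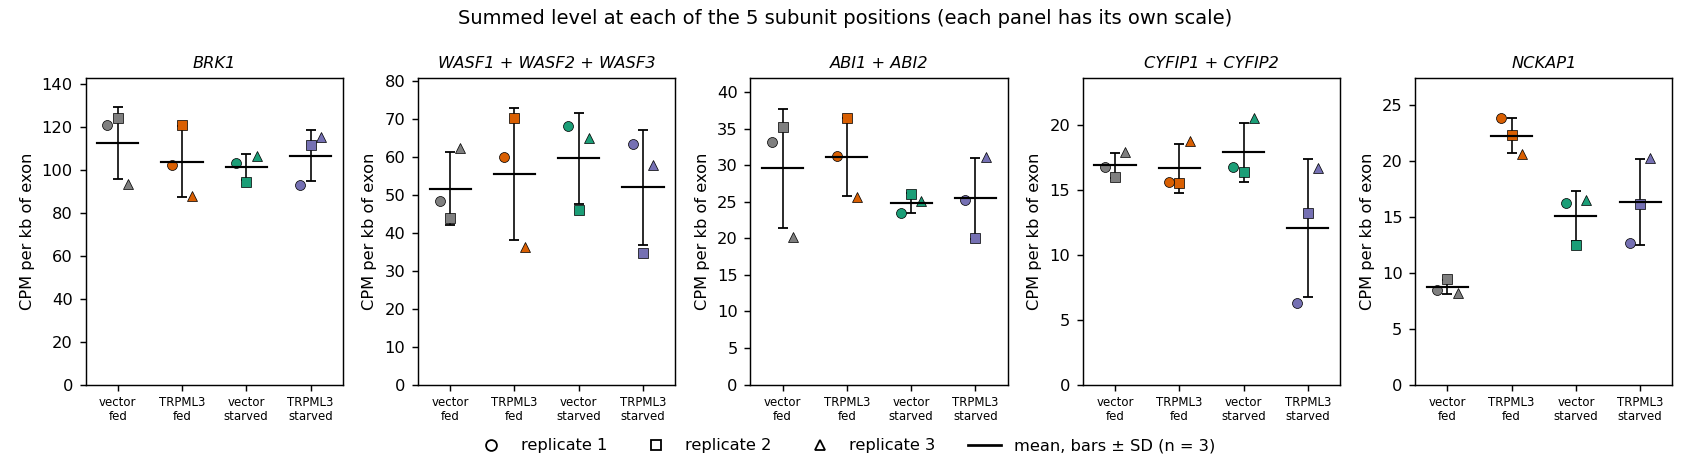
Summed CPM per kb of exon at each of the 5 subunit positions in the 12 libraries, 1 panel per position with its own vertical scale from 0; symbols are replicates, lines are means and bars are ± SD (n = 3). NCKAP1 goes from 8.71 in vector fed to 22.3 in TRPML3 fed, while BRK1 stays between 88.1 and 124.

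The share of each paralog at its position was then computed. Per kb of exon, CYFIP1 made up 62.3% ± 0.76 (SD, n = 3) of CYFIP in vector fed, 62.2% ± 2.18 in TRPML3 fed, 61.2% ± 1.88 in vector starved and 42.3% ± 29.3 in TRPML3 starved, where it was 59.0% without replicate 1. ABI1 made up 59.3% to 67.0% of ABI as group means, and WASF1 57.3% to 67.3% of WASF, with 21.2% to 27.5% for WASF3 and 11.4% to 15.1% for WASF2. In fed cells, a comparison not tested here because it chose NCKAP1, the WASF1 share was 54.3% to 59.6% with vector and 62.1% to 67.7% with TRPML3, without overlap. The fed shares of CYFIP1, ABI1, WASF2 and WASF3 all overlapped between the plasmids. How often such shares fail to overlap over other genes was not computed, so the WASF1 shares are a description. In starved cells the WASF1 share was 58.8% to 75.0% with vector and 52.8% to 66.6% with TRPML3. Those ranges overlapped, and the mean was lower with TRPML3. The comparisons other than TRPML3 against vector in fed cells were given 15 exact two-sided permutation tests. These tests cannot reach 0.05 with 3 libraries against 3 (smallest possible p 0.1). Their smallest p was 0.2 and their smallest adjusted p 0.682, so they do not show whether the shares differ. By counts not scaled to length, ABI1 made up 20.9% to 27.2% of ABI, so that which ABI paralog leads depends on the scaling. Per kb of principal transcript, CYFIP1 made up 50.6% of CYFIP in vector fed.

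Correlations between the 9 genes depended on whether differences between groups were included. Over the 12 libraries, which all pairs share, Pearson's r of log2 CPM in the 36 pairs had a median of 0.08 and ran from -0.40 (CYFIP2 with WASF3) to 0.62 (ABI1 with ABI2). NCKAP1 had r between -0.19 and 0.26 with the other 8. As deviations from the group means, the median of the pairs was 0.23, and NCKAP1 had r of 0.70 with CYFIP1 and 0.63 with BRK1. The value for CYFIP1 includes TRPML3 starved replicate 1, with CYFIP1 at 5.78 CPM and NCKAP1 at 285 CPM, the lowest of that group for both. It was not computed without that library. In both fed groups the replicates ranked in opposite order for NCKAP1 and CYFIP1, and in both starved groups in the same order. The 5 genes most like NCKAP1 among 9155 with a mean of at least 10 CPM were SEC11A (r = 0.82), RSL1D1 (0.80), KIFAP3 (0.80), CDADC1 (0.78) and FAM76B (0.77), over 12 libraries that include those that chose NCKAP1. SEC11A, a subunit of the signal peptidase, had 135 ± 21.8 CPM (SD, n = 3) in vector fed, 234 ± 3.23 in TRPML3 fed, 211 ± 40.2 in vector starved and 233 ± 36.2 in TRPML3 starved. RSL1D1, a nucleolar protein, had 68.1 ± 6.96, 455 ± 46.7, 341 ± 74.5 and 510 ± 157 CPM in the same order. Their likeness rests on the libraries used to pick them and supports nothing further. As deviations from the group means, r with NCKAP1 was 0.30 for SEC11A and -0.64 for RSL1D1, so that within groups RSL1D1 ran opposite to NCKAP1.

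The genes around the complex were taken as 7 lists with 61 genes, of which 60 were tested. They were subunits of Arp2/3, Rac and Arf inputs with their exchange factors, and other activators of Arp2/3 together with partners of these activators. Further lists were inhibitors of Arp2/3, partners at the cell edge, FMRP partners of CYFIP, and the blood-lineage paralogs NCKAP1L and ABI3. None of the 60 passed the edgeR test in any of the 4 tested comparisons, with a lowest adjusted p of 0.363, and 12 of 240 values had an unadjusted p under 0.05, where 2.2%, 4.44%, 5.71% and 9.45% of all genes did in the 4 comparisons. Leaving out the blood-lineage paralogs, list medians lay between -0.18 and 0.24 on the log2 scale. NCKAP1L had at most 36 counts and ABI3 at most 2 counts, at 0 in 11 libraries, both far below the 9 WAVE genes.

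Among the 10 Arp2/3 subunits the smallest p for TRPML3 in starved cells belonged to ACTR2, which had 369 ± 183 CPM with vector and 664 ± 210 with TRPML3 (SD, n = 3). These libraries did not overlap, at 162 to 511 against 534 to 906 CPM (background 6.58%). In fed cells they did not overlap either, at 209 to 455 CPM with vector and 523 to 929 with TRPML3 (background 7.09%). The log2 fold change of ACTR2 in starved cells, 0.85 ± 0.45 (95% interval -0.14 to 1.83), had an edgeR adjusted p of 1, and 4 of 10 subunits had values above 0. Among the 13 genes of other activators and their partners the smallest p belonged to WIPF1, a partner of the WASP proteins. It had 13.7 to 16.5 CPM with vector and 38.9 to 51.8 CPM with TRPML3. Those groups did not overlap, and the log2 fold change was 1.59 ± 0.50 (unadjusted p = 0.00921, edgeR adjusted p = 1). In fed cells, however, WIPF1 had 12.3 to 48.2 CPM with vector and 19.5 to 57.0 with TRPML3, which overlapped.

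The same rule named 1 gene in each of the remaining lists. For these, TRPML3 in starved cells gave 0.30 ± 0.24 for ELMO1, part of a Rac exchange factor, and -0.42 ± 0.29 for GMFB, which removes branches. It gave -0.25 ± 0.20 for PFN1, the actin monomer binder profilin, and -0.14 ± 0.15 for FMR1, which encodes FMRP. All 4 had an edgeR adjusted p of 1. GMFB had an unadjusted p of 0.00492 for starvation with TRPML3, at -1.02 ± 0.29 on the log2 scale (edgeR adjusted p = 0.812).

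**Figure D4:**
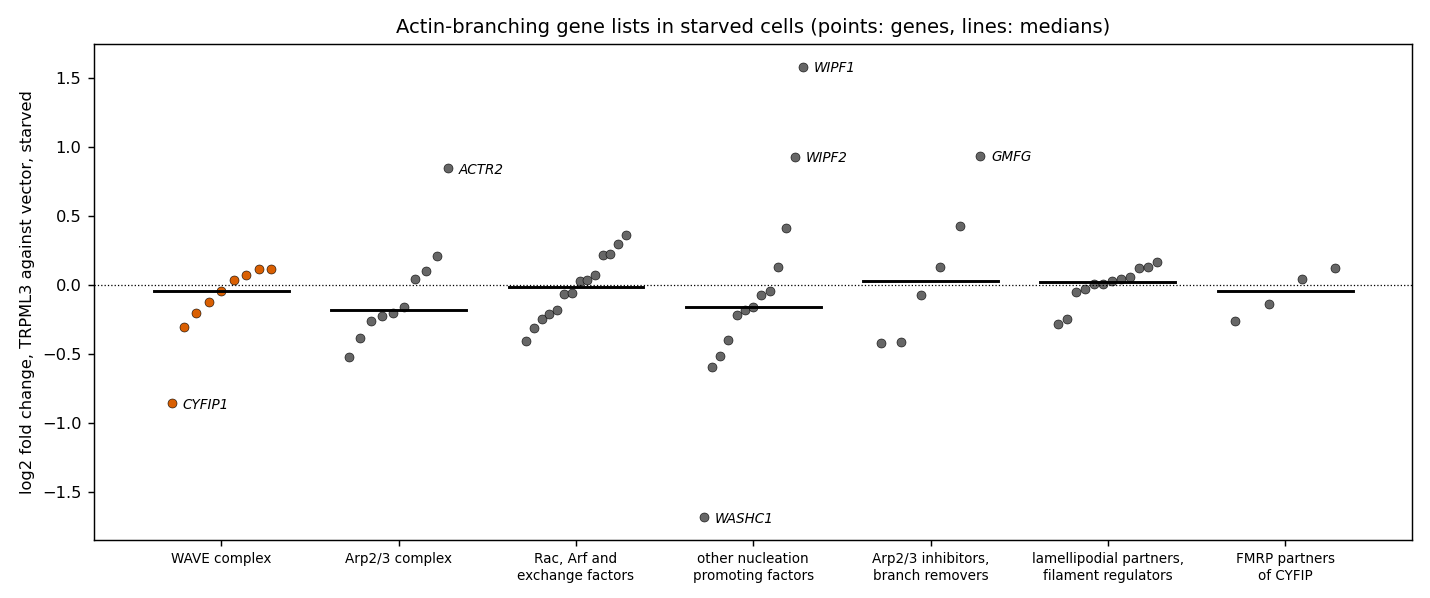
Log2 fold change of TRPML3 against vector in starved cells (vertical axis) for the 9 WAVE genes (orange) and 6 lists of genes around them (grey); each point is a gene and each line a list median. The medians lie between -0.18 and 0.03; WIPF1 is at 1.59, and WASHC1 at -1.68 and GMFG at 0.94 have means of only 0.56 and 0.36 CPM.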

How the data were processed

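Raw counts per gene in 12 libraries were deposited, with a second table of a normalized signal. That signal was the raw count divided by 1 factor per library, within 0.0325% of median-of-ratios factors. The submitters' processing notes name FastQC, fastp, HISAT2, StringTie, DESeq2 and the build GRCh38. The counting program, annotation and use of strand are not given in the sources used here, so whole numbers may be rounded estimates, and reads of overlapping or antisense genes may be shared.

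Counts were tested with edgeR 4.0.16 in R 4.3.3: TMM, filterByExpr, a robust quasi-likelihood fit to 12 libraries with 1 coefficient per group (8 residual degrees of freedom), Benjamini-Hochberg adjustment over 18030 genes, threshold 0.05, and SEs from the F value. CPM used TMM library sizes. 3 counts, the detection floor, were at most 0.0978 CPM. The scripts were tested on simulated counts with less variation between libraries than here, so that check does not show what these data could detect.

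The members and lists were chosen with earlier results of these data known. Named were the 9 members, the 2 blood-lineage paralogs, the list gene with the smallest p for TRPML3 in starved cells, and the 5 genes most correlated with NCKAP1. GMFB in starvation, WASHC1 and GMFG were named after their values were seen. Gene lengths and positions came from GENCODE 29 (GRCh38), promoters from RefSeq.

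Same-numbered vector and TRPML3 libraries deviated together in fed cells (r = 0.112, 0.145 and 0.326 over genes), so the numbers were taken as pairing them. The starved libraries gave 0.131, 0.0949 and 0.316. Across serum states, r ran from -0.0757 to 0.00748, so over all genes the numbers showed no pairing in the starvation comparisons. The mitochondrial share, however, followed the replicate number in both serum states. The main test and the permutation tests used no pairing, and the replicate block did. Alternatives were DESeq2 1.42.0 (Wald test and size factors), totals as the sole scaling, totals without MCOLN3, all genes unfiltered, 10 counts in every library, a replicate block, limma 3.58.1 on the log2 of the authors' normalized signal + 1, 6 libraries alone, an unadjusted threshold, and each replicate left out. Principal transcript lengths were added after seeing the data.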

Additional observations from a re-analysis of the deposited data

Results flagged for a closer look

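NCKAP1 moved in opposite directions on serum withdrawal: all 3 starved libraries were above all 3 fed ones with vector, and all 3 were below with TRPML3. The difference between the 2 starvation effects was -1.24 on the log2 scale. It was not tested, because both effects use the fed libraries that chose the gene.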

How the results depend on the processing

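No WAVE gene was called in the 4 tested comparisons with DESeq2, other scalings or filters, limma or 6 libraries. With the replicate block the count was also 0, NCKAP1 stood at 0.11 for TRPML3 in starved cells and 1.36 in fed cells, and the replicate block changed no call. At an unadjusted threshold the count was 1 for starvation with vector, 1 with TRPML3 and 1 on average. With libraries left out it ran from 0 to 1 for average starvation, the 1 being ABI2. Of 18 log2 fold changes followed, 6 changed sign under some alternative, all for TRPML3 in starved cells: WASF3 (-0.069) and BRK1 (-0.034) with library size only, and the following with libraries left out. NCKAP1 ran from -0.078 to 0.32, ABI1 from -0.016 to 0.30, ABI2 from -0.41 to 0.034, WASF2 from -0.23 to 0.19, WASF3 from -0.25 to 0.25 and BRK1 from -0.021 to 0.17. The cause was not tested. NCKAP1 ran from 1.28 to 1.42 in fed cells, from 0.70 to 0.98 for starvation with vector and from -0.68 to -0.24 with TRPML3. All 3 ranges use fed libraries that chose the gene. CYFIP1 in starved cells reached -1.64 with limma on the normalized signal. The median of the 9 for starvation with TRPML3 was -0.44 without replicate 3. Of the recomputed paralog shares, 21 moved by more than 1 SD of their group, all by length scaling, while 99 did not. Those 99 include shares with 1 library left out and shares from the normalized signal, neither of which could move that far. A mean of 3 cannot shift by 1 SD when 1 is dropped, and 1 factor per library cancels in a share. The 99 therefore do not show that the shares are stable. The CYFIP1 share in TRPML3 starved, whose SD was 29.3, went from 42.3% to 59.0% without replicate 1. Average starvation was not run on 6 libraries, since it needs all 12. With 3 libraries a group, the median SE over all genes was 0.45 on the log2 scale for TRPML3 in starved cells, which limits what could be called.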

Other observations

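Among the genes around the complex, those with an unadjusted p under 0.05 for average starvation are given as values, chosen after they were seen, and none passed the edgeR test over all genes. Over all genes 9.45% had such a p in this comparison, so a few of the 60 list genes would have one at the same share. ARF6, a GTPase at the plasma membrane and endosomes that acts with Rac on the WAVE complex, was at 0.41 ± 0.12 (log2 fold change, SE, adjusted p = 0.367), with 0.40 with vector and 0.41 with TRPML3. CDC42, the GTPase that activates WASP proteins, was at 0.22 ± 0.07 (adjusted p = 0.409). ARPC1A, an Arp2/3 subunit, was at 0.56 ± 0.23 (adjusted p = 0.486). NHSL1, a partner of the complex at the cell edge, was at -1.26 ± 0.36 (adjusted p = 0.363), and GMFB at -0.46 ± 0.20 (adjusted p = 0.518).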
